A study of Homo sapiens with 96 samples.

Results

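The cytosolic heat shock chaperones examined here are 10 genes, HSPA1A, HSPA1B, HSPA8, HSPH1, DNAJB1, HSPB1, CRYAB, HSP90AA1, HSP90AB1 and FKBP4. They were taken by symbol from the 60675 genes of the deposited count table. HSPA1A and HSPA1B were summed as HSPA1A+HSPA1B, which leaves 9 features, and all 9 passed the filter on low counts in both batches. The 96 RNA libraries came from A549, a human lung adenocarcinoma cell line, after exposure to Paeoniae Radix (dried peony root) preparations or to single ingredients. In batch 1 the 7 groups were vehicle, a water extract at 500, 100 or 20 µg/mL and an ethanol extract at the same 3 doses. In batch 2 the 25 groups were vehicle and albiflorin, benzoic acid, catechin, gallic acid, hederagenin, oleanolic acid, paeoniflorin or paeonol, each at 10, 2 or 0.4 µM. Every group had 3 libraries, and each batch had its own vehicle group. How long cells were exposed and what the vehicle contained is not stated in the labels, an extract is a mixture, and its doses cannot be set against molar doses of the ingredients. Whether the 3 libraries of a group came from separate cultures is not stated either, so every p-value reflects the spread among these libraries alone, which could be technical.

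Cytosolic chaperones bind unfolded protein chains and keep them from aggregating. HSP70 proteins do so in cycles of ATP hydrolysis that J-domain proteins start and nucleotide exchange factors end, HSP90 proteins then mature client proteins such as kinases and steroid receptors with the help of cochaperones, and small heat shock proteins hold unfolded chains without ATP. When unfolded protein accumulates, the transcription factor HSF1 trimerises and binds inverted repeats of the 5-base unit nGAAn, called heat shock elements, in the promoters of these genes. Cancer cell lines often carry high levels of these transcripts without applied heat.

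The 250 bases before each start site listed by RefSeq for these genes were searched for adjoining units, written GAANNTTC or TTCNNGAA for a pair, where N is any base. A run of 3 units had another NN and a further GAA or TTC added in alternation. Each pattern is its own reverse complement or that of its partner, so both strands were covered, and a pair may lie within a 3-unit match. There were 13 such windows (build GRCh38.p14), for 8 of the 10 genes, all but FKBP4 and CRYAB. A pair was present in 7 of the 13 windows (53.8%) and 3 units in 3 (23.1%), beside 11.6% and 0.441% of all 35116 windows of the same length. The 7 windows belonged to 7 of the 8 genes, HSPH1 being the exception, and the 3 to HSPA8, HSP90AA1 and HSP90AB1. The matched stretches are shown because heat shock elements are the regulatory sequence this gene group is known for. Capitals mark the matches, each sequence is read 5′ to 3′ on the strand of its gene, and a match is a description of letters, not a measured binding site. The HSPA1A stretch lies at chr6:31815422-31815459 and the HSPA1B stretch at chr6:31827618-31827655. That of HSP90AB1 lies at chr6:44247763-44247858, HSPB1 at chr7:76302476-76302513, and DNAJB1 on the minus strand at chr19:14518422-14518489. The HSP90AA1 stretch is on the minus strand at chr14:102087104-102087133, and the upstream and downstream stretches of HSPA8 are on the minus strand at chr11:123062346-123062374 and chr11:123062171-123062199. These last 3 stretches precede the RefSeq start but lie wholly within GENCODE exons of other transcripts of the gene.
HSPA1A: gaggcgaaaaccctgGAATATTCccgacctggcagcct
HSPA1B: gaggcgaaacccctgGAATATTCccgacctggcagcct
HSPA8, upstream: gcgagcttGAAAGTTCCAGAAcgctgcgg
HSPA8, downstream: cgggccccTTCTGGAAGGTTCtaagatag
DNAJB1: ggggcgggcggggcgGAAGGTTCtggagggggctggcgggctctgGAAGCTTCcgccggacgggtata
HSPB1: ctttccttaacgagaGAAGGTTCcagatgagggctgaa
HSP90AA1: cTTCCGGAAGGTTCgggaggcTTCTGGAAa
HSP90AB1: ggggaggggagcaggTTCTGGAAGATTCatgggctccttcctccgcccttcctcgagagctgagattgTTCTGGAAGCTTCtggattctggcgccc

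In GENCODE v29 (GRCh38) HSPA1A lies at chr6:31815464-31817946 and HSPA1B at chr6:31827735-31830255. Of the 2384 stretches of 100 bases in HSPA1A, 1666 (69.9%) also occur in HSPA1B, so reads from the 2 genes are divided by the counting program and only their sum is used. No such stretch is shared by HSP90AA1 (chr14:102080738-102139699) and HSP90AB1 (chr6:44246166-44253888), or by HSPA1A and HSPA8 (chr11:123057489-123063230). HSPA8, HSPB1, HSP90AA1 and HSP90AB1 also have processed pseudogenes, whose share of the reads was not tested. The other genes lie at chr13:31134974-31162388 (HSPH1), chr19:14514770-14529770 (DNAJB1), chr7:76302544-76304295 (HSPB1), chr12:2794953-2805423 (FKBP4) and chr11:111908565-111923722 (CRYAB).

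Depth was 17.9 to 28.1 M counts a library in batch 1 and 15.7 to 35.6 M in batch 2. The epithelial keratins KRT8 and KRT18 were at 1360 to 6530 and 1250 to 5930 CPM (counts scaled to M counts of library size), whereas the alveolar type 2 genes SFTPA1, SFTPB, SFTPC and NKX2-1 lay at 0 to 0.315 CPM in all 96 libraries. The fifth gene of that list, NAPSA, ran from 0.226 to 1.92 CPM. Defining transcripts of the cell type from which A549 is usually said to derive were thus at or near 0. The leukocyte gene PTPRC and the endothelial gene PECAM1 stayed at or below 0.227 and 0.257 CPM, but CD68 of the leukocyte list ran from 1.28 to 21.6 CPM. Of the fibroblast list COL1A1 lay at 22.2 to 535 and COL3A1 at 2.75 to 65.7 CPM in every library. DCN and POSTN of that list stayed at or below 0.961 and 0.128 CPM, and LUM ran from 0.106 to 11.8 CPM with a median of 0.48. The fibroblast gene COL1A2 reached 10 CPM or more in 4 libraries, all of batch 2 (highest 595), which belonged to gallic acid at 2 and 0.4 µM and catechin at 10 and 2 µM. The share of counts from the 13 mitochondrially encoded protein genes was 13.9 to 18.5% in batch 1 vehicle and 11.6 to 15.3% in the extract libraries. In batch 2 it was 11.6 to 12.1% in vehicle but 0.486 to 15.5% over all libraries, with 21 treated libraries at or below 5.44%. These libraries stand apart, and counts of calls are also given without them.

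Expressed per kilobase of the exon length of each gene, the order of levels in vehicle cells was nearly the same in both batches. That length (5248 bases for HSP90AA1, 2980 for HSP90AB1) can exceed the length of the transcript expressed, so the order depends on it. In batch 1 HSP90AB1 was highest at 701 ± 31.9 CPM per kb (SD, n = 3), followed by HSP90AA1 at 505 ± 46.5. HSPB1 at 410 ± 23.7 and HSPA8 at 402 ± 5.42 overlapped and cannot be ordered. HSPA1A+HSPA1B, over the length of 1 copy, stood at 240 ± 9.02 CPM per kb. FKBP4 (66.2), DNAJB1 (42.5) and HSPH1 (26.7) were lower, and CRYAB was lowest at 1.43 ± 0.272 CPM per kb. In batch 2 no neighbours overlapped, and HSPA8 (291 CPM per kb) stood above HSPB1 (241).

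The main question of batch 1 was what each extract does to transcript levels at each dose. With ethanol extract at 500 µg/mL all 9 chaperones fell against vehicle, with log2 changes of -0.22 to -2.55, by edgeR's quasi-likelihood test and Benjamini-Hochberg adjustment over all genes tested. In that comparison 34.5% of all genes tested fell and 34.7% rose. The median log2 change was -1.18 over the 9 chaperones and 0 over all genes. These are bulk samples and CPM is relative to the other transcripts, so fewer cells expressing a gene and less of its RNA per cell cannot be told apart.

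Within the HSP70 group the stress-inducible HSP70 genes fell most. HSPA1A+HSPA1B stood at 583, 621 and 582 CPM in the vehicle libraries and at 98.5, 96.9 and 108 CPM with ethanol extract at 500 µg/mL. The 3 treated libraries were all less than the lowest vehicle library, and the level was 0.17 of vehicle (log2 -2.55 ± 0.04, SE; adjusted p = 2.53e-22, edgeR's quasi-likelihood test). HSPA8, the constitutive HSP70 of the cytosol, went from 1920, 1980 and 1950 CPM to 1440, 1500 and 1510 CPM. Its groups did not overlap either, but the fall was much smaller (0.759 of vehicle, log2 -0.40 ± 0.04). DNAJB1, a J-domain protein that delivers unfolded chains to HSP70, went from 160, 157 and 150 CPM to 90.6, 98.6 and 94.5 CPM. That was 0.608 of vehicle (log2 -0.72 ± 0.04). HSPH1, an HSP110 protein that exchanges the nucleotide of HSP70, changed least of the 9, from 225, 236 and 210 CPM to 191, 198 and 186 CPM. The fall to 0.857 of vehicle still passed the test (log2 -0.22 ± 0.04, edgeR adjusted p = 1.68e-05), with all treated libraries below all vehicle libraries.

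In the HSP90 group, HSP90AA1, the inducible cytosolic HSP90, went from 2580, 2920 and 2450 CPM in vehicle to 1120, 1150 and 1130 CPM with ethanol extract at 500 µg/mL. HSP90AB1, the constitutive form, went from 2000, 2190 and 2080 CPM to 1040, 1030 and 1030 CPM. The levels were 0.427 and 0.494 of vehicle (log2 -1.23 ± 0.04 and -1.02 ± 0.03), and neither gene's groups overlapped. FKBP4, a peptidyl-prolyl isomerase that works with HSP90 in steroid receptor complexes, went from 336, 351 and 341 CPM to 130, 131 and 131 CPM. It was at 0.38 of vehicle (log2 -1.39 ± 0.03, edgeR adjusted p = 4.33e-20), the largest fall of the HSP90 group.

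Both small heat shock proteins fell as well. HSPB1 (HSP27), which binds unfolded protein and actin filaments, went from 626, 694 and 692 CPM to 289, 281 and 319 CPM (0.442 of vehicle, log2 -1.18 ± 0.07). CRYAB (alpha B-crystallin), low throughout, went from 4.18, 3.61 and 5.24 CPM to 1.2, 1.7 and 1.93 CPM. Its fall to 0.375 of vehicle carried a wider error (log2 -1.41 ± 0.18, edgeR adjusted p = 3.83e-07), and the groups did not overlap. All 9 calls at this dose held with each library left out in turn and with the mitochondrial share as a covariate.

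**Figure D1:**
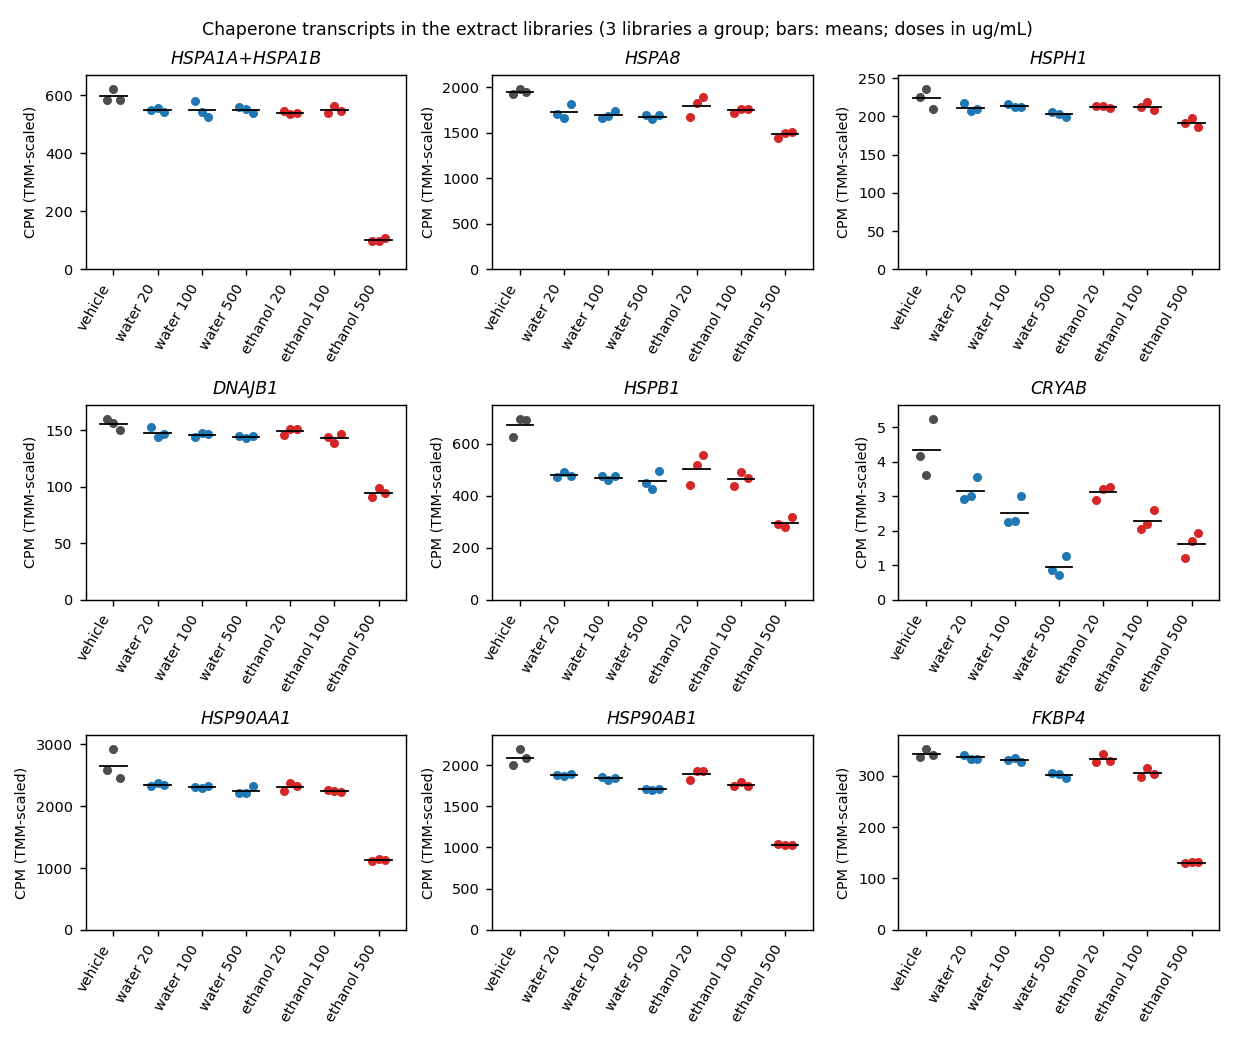
CPM of each chaperone (vertical axes, from 0) in the 21 batch 1 libraries by group (horizontal axes, doses in µg/mL), 1 point a library and a bar at each mean of 3. With ethanol extract at 500 µg/mL HSPA1A+HSPA1B lies at 96.9 to 108 CPM, below all other groups, while CRYAB is lowest with water extract at 500 µg/mL.

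With water extract at 500 µg/mL 8 of the 9 chaperones fell, where 11.4% of all genes tested fell and 9.7% rose, and the changes were small except in the small heat shock proteins. CRYAB stood at 0.867, 0.722 and 1.27 CPM, all below the vehicle range, and fell to 0.217 of vehicle (log2 -2.20 ± 0.21, edgeR's quasi-likelihood adjusted p = 2.13e-07). HSPB1 stood at 450, 427 and 495 CPM, again below all vehicle libraries (log2 -0.55 ± 0.07, edgeR adjusted p = 7.92e-06). HSP90AB1 (1710, 1700 and 1710 CPM), HSP90AA1 (2210, 2220 and 2320 CPM) and HSPA8 (1690, 1650 and 1690 CPM) fell by 0.29, 0.24 and 0.22 on the log2 scale. FKBP4, HSPH1 and DNAJB1 fell by 0.19, 0.14 and 0.11. The HSPH1 call was lost without vehicle replicate 2 (adjusted p = 0.0736, edgeR) and in the fit of the 2 groups alone. That of DNAJB1 was lost in 5 of the fits that left out 1 library, among others. HSPA1A+HSPA1B, at 560, 552 and 538 CPM, lay below all vehicle libraries but missed the threshold (log2 -0.11, adjusted p = 0.0526 with edgeR and 0.0174 with DESeq2).

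At 100 and 20 µg/mL the falls were shallow and of similar size for both extracts. With ethanol extract 7 of 9 chaperones fell at 100 µg/mL and 4 at 20 µg/mL, beside 9.22% and 3.82% of all genes lower and 8.24% and 3.63% higher. With water extract 5 and 4 of 9 fell, beside 6.97% and 5.23% of all genes lower and 5.56% and 4.26% higher, and no chaperone rose at either dose. The median change of the 9 was -0.16 and -0.14 with ethanol extract and -0.18 and -0.15 with water extract. HSPB1 was lower by 0.41 to 0.55 in the 5 groups other than ethanol extract at 500 µg/mL. Its water extract libraries at 20 µg/mL stood at 473, 490 and 475 CPM and those of ethanol extract at 439, 516 and 555 CPM, all below the lowest vehicle value of 626. HSP90AA1 and HSP90AB1 also fell in all 6 extract groups. At 20 µg/mL HSP90AA1 was lower by 0.19 and HSP90AB1 by 0.14 with ethanol extract, and by 0.18 and 0.15 with water extract. CRYAB at 100 µg/mL fell by 0.93 with ethanol extract (2.04, 2.21 and 2.6 CPM) and by 0.78 with water extract (2.26, 2.27 and 3.02 CPM). A single vehicle group serves all 6 of these comparisons, so they share its error. The vehicle libraries also had the higher mitochondrial shares given above, and with that share as a covariate other genes were called. Of the 7 and 4 calls with ethanol extract at 100 and 20 µg/mL 4 and 4 were kept, and of the 5 and 4 with water extract 4 and 3, while HSPH1 joined them in all 4 comparisons. CRYAB was then no longer called at 100 µg/mL (log2 -0.48 and -0.32, edgeR adjusted p = 0.0818 and 0.373). HSPA1A+HSPA1B was called in all 6 extract groups with the covariate, at log2 -0.16 to -0.17 in those other than the 500 and 20 µg/mL ethanol groups.

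**Figure D2:**
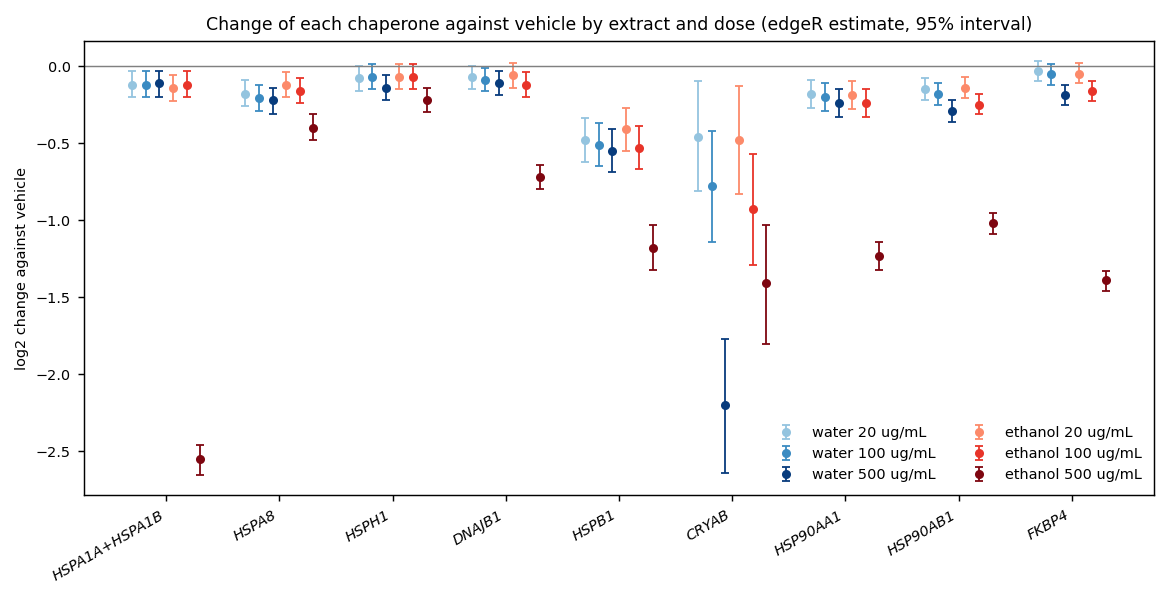
Log2 change of each chaperone against vehicle (vertical axis) for water (blue) and ethanol (red) extract, darker with dose in µg/mL, with edgeR's estimate as the point and its 95% interval as the bar. For 8 of the 9 genes the point of ethanol extract at 500 µg/mL is the lowest, with HSPA1A+HSPA1B at -2.55, whereas for CRYAB it is that of water extract at -2.20.

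Set directly against each other at 500 µg/mL, ethanol extract left 7 of the 9 chaperones lower than water extract and 1, CRYAB, higher, beside 33.3% and 32.7% of all genes. HSPA1A+HSPA1B differed most (log2 -2.44, edgeR's quasi-likelihood adjusted p = 6.55e-22), followed by FKBP4 (-1.21), HSP90AA1 (-0.99), HSP90AB1 (-0.73), HSPB1 (-0.63), DNAJB1 (-0.61) and HSPA8 (-0.17). HSPH1 differed by -0.08 and did not pass the test (edgeR adjusted p = 0.0635). CRYAB was 0.79 ± 0.24 higher (edgeR adjusted p = 0.00574), although 1.2 CPM in 1 ethanol library lay within the water range of 0.722 to 1.27. At 100 and 20 µg/mL 0 of 9 chaperones differed between the extracts, where 1.77% and 0% of all genes were called with edgeR. At 20 µg/mL 735 genes, none of the 9 among them, had an unadjusted p under 0.05. At 100 µg/mL 1 chaperone had one, as did 2119 of all 16853 genes, and DESeq2 called 1 chaperone.

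From 100 to 500 µg/mL of ethanol extract all 9 chaperones fell, beside 33.2% of all genes, and HSPA1A+HSPA1B went from 540, 564 and 545 CPM to the 98.5, 96.9 and 108 CPM above. The CRYAB call of this step was lost with DESeq2 (adjusted p = 0.0637) and without any 1 of 4 of the 6 libraries (edgeR adjusted p = 0.0529 to 0.173). From 20 to 100 µg/mL 0 of 9 passed edgeR's test (1.79% of all genes called, DESeq2 calling 2 of the 9). Of the 9, 3 had an unadjusted p under 0.05 with edgeR, as did 2226 of all 16853 genes. With water extract 2 of 9 fell from 100 to 500 µg/mL (0.57% of all genes), CRYAB by 1.42 and FKBP4 by 0.13. The FKBP4 call (edgeR adjusted p = 0.0384) was lost whenever any 1 of the 6 libraries was left out, and that of CRYAB (0.000936) was kept. From 20 to 100 µg/mL of water extract 0 of 9 were called, where 0.0119% of all genes were. An unadjusted p under 0.05 was seen in 0 of 9, beside 535 of all 16853 genes. The step from 100 to 500 µg/mL itself differed between the extracts in 8 of 9 chaperones, 7 falling further with ethanol extract and CRYAB with water extract, beside 27.5% of all genes lower and 25.4% higher.

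Over the 21 libraries of batch 1 the log2 level of each chaperone was set against the mean of the other chaperones. HSP90AB1 followed that mean most closely among the 9 (Pearson r = 0.991), and CRYAB followed it least (0.472). Outside the group ANXA2 (0.992), SNRPC (0.992), TPX2 (0.99), NRBP1 (0.989) and FARSB (0.989) were closest to the mean of all 9. The r of members and of other genes thus refer to different means. These values describe 21 libraries that share the large contrast of ethanol extract at 500 µg/mL.

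Other parts of the chaperone network were read from lists of related genes. With ethanol extract at 500 µg/mL (34.5% of all genes lower, 34.7% higher) 13 of 23 further HSP70 system genes fell and 4 rose, among them HSPA4L at -2.36, DNAJA1 at -1.15, HSPA4 at -1.02 and HSPBP1 at -0.93. Of 12 HSP90 cochaperones 10 fell and 0 rose, with the isomerase PPID at -2.02, the HSP70-HSP90 adaptor STIP1 at -1.24, CHORDC1 at -1.02 and the ATPase activator AHSA1 at -0.91. All 8 subunits of TRiC, the cytosolic chaperonin that folds actin and tubulin, fell, and CCT5 at -1.07, CCT6A at -0.94, CCT2 at -0.93 and CCT7 at -0.80 had the smallest p. Of the 7 mitochondrial chaperones 6 fell and 1 rose, HSPE1 at -1.16 and its partner HSPD1 at -0.59 among them. Of the 7 other genes with HSPB symbols, listed as small heat shock proteins by symbol alone, 3 were tested. Of these HSPB8 rose by 0.31 and HSPB11 fell by 0.64. Among 11 genes listed as heat shock factors and other heat shock targets 4 fell, including the ubiquitin gene UBB at -0.56, and 2 rose, including IER5 at 0.48. The median log2 change was -0.30 for the HSP70 system list, -0.78 for the cochaperones, -0.69 for TRiC, -0.49 for the mitochondrial list and -0.05 for the last, beside 0 over all genes. With water extract at 500 µg/mL (11.4% lower, 9.7% higher) 7 of 23 HSP70 system genes, 7 of 12 cochaperones, 4 of 8 TRiC subunits and 4 of 7 mitochondrial chaperones fell, and 1, 1, 0 and 0 rose.

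Batch 2 asked the same of 8 ingredients. At 10 µM 8 of 72 tests of the chaperones were called with edgeR's quasi-likelihood test, 6 lower and 2 higher, beside 0.99% lower and 1.61% higher over all genes and the 8 comparisons. At 2 µM 2 of 72 were called (1.17% of all tests) and at 0.4 µM 3 of 72 (1.05%), all lower. Between 10 and 0.4 µM 2 of 72 were called (0.51%), both lower. Oleanolic acid and hederagenin, pentacyclic triterpenes that differ by a hydroxyl group, accounted for 9 of the 13 calls against vehicle, and the other 4 were HSPH1 with paeoniflorin at 0.4 µM and 3 genes with gallic acid at 10 µM.

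Oleanolic acid at 10 µM lowered 3 of the 9 chaperones, beside 1.86% of all genes lower and 2.58% higher. HSPA1A+HSPA1B stood at 499, 501 and 508 CPM in the batch 2 vehicle and at 203, 196 and 256 CPM with the acid. The groups lay far apart, at 0.434 of vehicle (log2 -1.20 ± 0.17, edgeR adjusted p = 1.93e-06). HSPH1 went from 193, 192 and 194 CPM to 114, 113 and 123 CPM. This was the smallest p of the group in batch 2 (0.606 of vehicle, log2 -0.72 ± 0.07, edgeR adjusted p = 8.77e-12), in the gene that changed least with ethanol extract at 500 µg/mL. HSP90AA1 went from 2220, 2190 and 2310 CPM to 1450, 1460 and 1640 CPM (log2 -0.56 ± 0.15, edgeR adjusted p = 0.0204). Its groups did not overlap, but the call was lost without any 1 vehicle library and without treated replicate 1 or 2 (adjusted p = 0.0529 to 0.0921, edgeR). HSP90AB1 (1510, 1450 and 1560 CPM), FKBP4 (265, 278 and 293 CPM), HSPA8 (1170, 1150 and 1070 CPM) and DNAJB1 (113, 104 and 101 CPM) also lay below all vehicle libraries without passing the test (log2 -0.31, -0.31, -0.32 and -0.26). Over all genes tested and the 24 treated groups of batch 2, 15.2% of cases lay wholly below vehicle. The share with this acid alone was not counted. HSPB1 differed by 0.17 and CRYAB by -0.03, neither called.

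The lower doses of oleanolic acid gave smaller falls in the same pair of genes. HSPA1A+HSPA1B stood at 321, 271 and 290 CPM at 2 µM and at 292, 273 and 303 CPM at 0.4 µM (log2 -0.78 and -0.80, edgeR adjusted p = 0.0186 and 0.0259). These 2 doses overlapped each other, and both were below vehicle. HSPH1 stood at 139, 136 and 144 CPM and at 149, 152 and 158 CPM (log2 -0.46 and -0.34, edgeR adjusted p = 2.37e-05 and 0.00789). The 3 dose groups of HSPH1 did not overlap, and 10 against 0.4 µM differed by -0.39 (edgeR adjusted p = 8.66e-05). HSPH1 was the 1 chaperone called between these 2 doses, and HSPA1A+HSPA1B was among the 8 not called. The calls of HSPA1A+HSPA1B at 2 and 0.4 µM and of HSPH1 at 0.4 µM were lost whenever a replicate number was left out of all groups, and that of HSPH1 at 2 µM without replicate 3 (edgeR adjusted p = 0.0763), whereas those of both at 10 µM were kept. The background of called genes was 0.322% at 2 µM, 0.18% at 0.4 µM and 1.02% lower between the doses.

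With hederagenin at 10 µM the same pair fell, 2 of 9 beside 0.868% of all genes lower. HSPA1A+HSPA1B stood at 265, 291 and 340 CPM (log2 -0.75 ± 0.17, edgeR adjusted p = 0.00644) and HSPH1 at 146, 144 and 146 CPM (log2 -0.41, edgeR adjusted p = 4.96e-05). All 6 values were below vehicle. The HSPA1A+HSPA1B call was lost without treated replicate 1 (log2 -0.69, adjusted p = 0.052, edgeR). HSPH1 differed between 10 and 0.4 µM by -0.25 (edgeR adjusted p = 0.0412, beside 0.409% of all genes lower), from 188, 165 and 167 CPM at 0.4 µM. This call was lost without the libraries of low mitochondrial share (log2 -0.20, edgeR adjusted p = 0.0911), without the filter, in the fit of the 2 groups alone and without any 1 of the 3 libraries at 10 µM. Against vehicle at 10 µM 4 of 9 chaperones were called lower without the low library, beside 16.3% of all genes called.

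**Figure D3:**
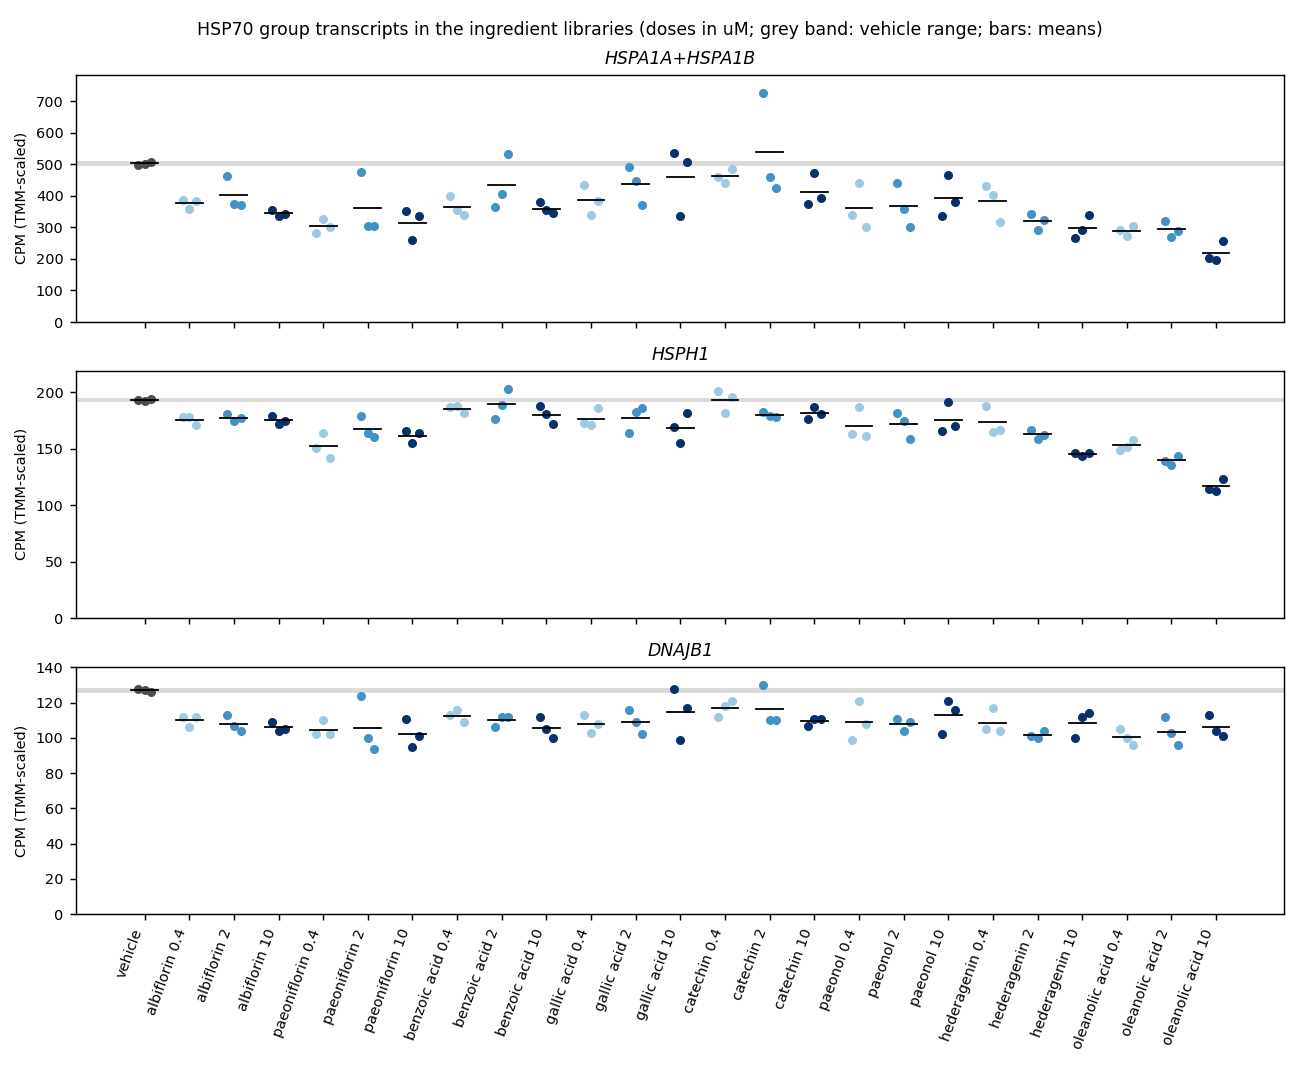
CPM of HSPA1A+HSPA1B, HSPH1 and DNAJB1 (vertical axes, from 0) in the 75 batch 2 libraries by ingredient and dose in µM, 1 point a library, a bar at each mean of 3 and a grey band over the 3 vehicle libraries. Oleanolic acid at 10 µM gives the lowest points of HSPA1A+HSPA1B (196 to 256 CPM) and HSPH1 (113 to 123 CPM), and most treated points lie under the band.

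Compared at matched dose, hederagenin and oleanolic acid were called different in 0 of 27 chaperone tests, where 0.00364% of all tests were called. An unadjusted p under 0.05 with edgeR was seen in 10 of the 27, beside 4136 of all 54969 tests. HSPH1 was higher with hederagenin by 0.31 (95% interval 0.18 to 0.45) at 10 µM, 0.22 (0.09 to 0.35) at 2 µM and 0.18 (0.05 to 0.32) at 0.4 µM, and its libraries did not overlap at any dose. Its adjusted p by edgeR was 0.132, 1 and 0.242. HSPA1A+HSPA1B was higher by 0.45 (0.10 to 0.80), 0.12 (-0.23 to 0.46) and 0.40 (0.06 to 0.75). Without the libraries of low mitochondrial share 4 chaperones were called higher with hederagenin at 10 µM, beside 1.36% of all genes called, among them HSPA1A+HSPA1B (0.48, edgeR adjusted p = 0.0225) and HSPH1 (0.35, edgeR adjusted p = 0.00117). Paeoniflorin and albiflorin, isomeric monoterpene glycosides, were called different in 0 of 27 tests (0% of all tests). They had 4 of the 27 at an unadjusted p under 0.05, beside 2208 of all 54969 tests. Their widest gap in HSPH1 was at 0.4 µM, at 151, 164 and 142 against 178, 178 and 171 CPM (log2 -0.21, interval -0.34 to -0.07, edgeR adjusted p = 1). Gallic acid, a benzoic acid with hydroxyl groups added, and benzoic acid differed in 1 of 27 tests (2.9% of all tests called). Of these 27 tests 8 had an unadjusted p under 0.05, beside 8153 of all 54969 tests. HSP90AB1 at 10 µM was at 3080, 1780 and 2290 CPM with gallic acid and at 2000, 1900 and 1900 CPM with benzoic acid. The difference of 0.30 (0.10 to 0.51, edgeR adjusted p = 0.0486) came with overlapping libraries.

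With all libraries in the fit and no covariate, gallic acid at 10 µM was the one ingredient with chaperones called higher. Its libraries differed widely in mitochondrial share. HSP90AA1 stood at 4270, 1970 and 2860 CPM (log2 0.44 ± 0.15, edgeR adjusted p = 0.0499) and HSP90AB1 at the 3080, 1780 and 2290 CPM given above (log2 0.36, edgeR adjusted p = 0.0174). Both overlapped vehicle, beside 8.51% of all genes higher and 4.96% lower. The mitochondrial share of these 3 libraries was 1.44, 15.5 and 2.07%, so the single library of high share was the one below vehicle for both genes. With that share as a covariate 0 chaperones were called higher with gallic acid at 10 µM and 3 lower, beside 9.68% of all genes called. The cause of this change was not tested. Without replicate 1 HSP90AA1 was at 0.10 (adjusted p = 0.777, edgeR) and HSP90AB1 at 0.13 (0.572). HSPH1 (169, 155 and 182 CPM) was called lower at -0.20 (edgeR adjusted p = 0.0429), a call lost when any 1 of 5 of the 6 libraries compared was left out. Paeoniflorin at 0.4 µM lowered HSPH1 (log2 -0.34, edgeR adjusted p = 0.00777), 1 of 9 chaperones beside 0.0709% of all genes lower, with all 3 libraries below vehicle. This call was lost without the filter on low counts. With a replicate number left out of all groups, 0 to 1 chaperone calls remained over the 8 ingredients at 0.4 µM.

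**Figure D4:**
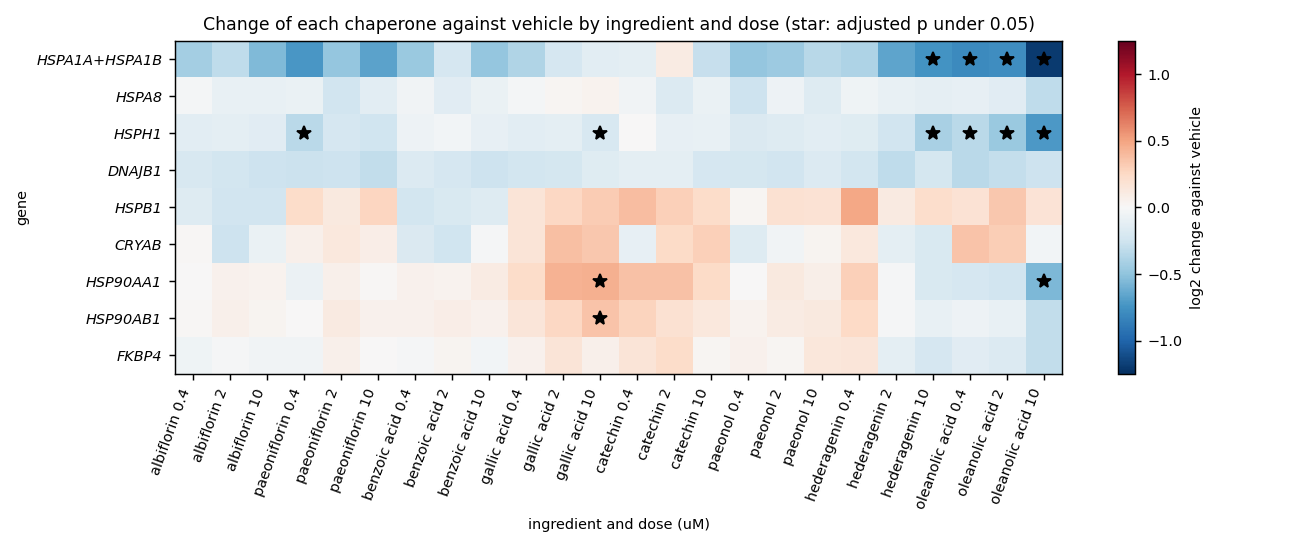
Log2 change against vehicle (colour, blue lower and red higher) of each chaperone (rows) for each ingredient and dose in µM (columns), with a star where edgeR's adjusted p is under 0.05. The 13 stars lie in the HSPA1A+HSPA1B, HSPH1, HSP90AA1 and HSP90AB1 rows, and 9 of them in the hederagenin and oleanolic acid columns.

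Beyond the called genes, the 3 vehicle libraries of batch 2 lay at the upper edge of the HSP70 group. All 3 treated libraries were below all 3 vehicle libraries in 21 of 24 treated groups for HSPA1A+HSPA1B, in 22 for HSPH1, in 22 for DNAJB1 and in 11 for HSPA8, while edgeR called 0.99% of all tests lower at 10 µM. Over all genes tested and the 24 groups, 15.2% of cases lay wholly below vehicle and 15.3% wholly above, and 2.12% of genes lay wholly below in 21 or more groups. For FKBP4 it was 7 groups, for HSP90AA1 4, for HSPB1 and CRYAB 3 each and for HSP90AB1 2. The vehicle libraries also varied little, with an SD of 0.899% of the mean for HSPA1A+HSPA1B against a median of 12.8% over the treated groups, and 0.48% against 4.55% for HSPH1. A single vehicle group serves all 24 comparisons, so a shift of vehicle and a shift shared by all treated groups cannot be told apart. At 10 µM the mean of HSPA1A+HSPA1B ran upward from oleanolic acid (218 CPM) over hederagenin (299), paeoniflorin (315), albiflorin (344), benzoic acid (360), paeonol (394) and catechin (412) to gallic acid (461), beside 503 in vehicle. Only oleanolic acid stood clear of its neighbour in this order, all other neighbours having overlapping libraries. HSPB1 behaved otherwise, with 18 of 24 group means above the vehicle mean of 393 CPM and the 6 means below it, 332 to 351 CPM, all in the albiflorin and benzoic acid groups. With all libraries in the fit no HSPB1 test was called with edgeR in batch 2.

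Libraries of low mitochondrial share had higher levels of some of these transcripts. The median of HSPA1A+HSPA1B was 460 CPM in the 21 such libraries and 339 CPM in the other 51 treated libraries. HSP90AA1 was at 2750 against 2250 CPM, HSP90AB1 at 2140 against 1900 and FKBP4 at 383 against 334, whereas HSPA8 was at 1310 against 1330. Among the 36 treated libraries with a share of 10% or more, near that of vehicle, HSPA1A+HSPA1B ran from 196 to 405 CPM (median 338), HSPH1 from 113 to 189 and DNAJB1 from 94.8 to 116. Every one of these 36 lay below all vehicle libraries for each of the 3 genes, as was so for 1.06% of all genes tested. The other chaperones did not share this, with 30 of the 36 below and 4 above for FKBP4, 28 and 2 for HSPA8, 16 and 15 for CRYAB, 13 and 18 for HSPB1, 13 and 10 for HSP90AA1 and 10 and 17 for HSP90AB1. Without the 21 libraries HSPA1A+HSPA1B was called lower in 19 of 24 comparisons with vehicle, DNAJB1 in 15 and HSPH1 in 13. In the same fit HSPB1 was called higher in 3 comparisons, HSP90AA1 in 2, HSP90AB1 in 2 and FKBP4 in 1. These 8 calls were 4 with catechin at 2 µM, 3 with catechin at 0.4 µM and 1 with hederagenin at 0.4 µM, groups of 1 remaining library whose spread is taken from the other groups, and 0 with gallic acid at 10 µM. With the share as a covariate the numbers were 24, 16 and 11, beside 4.11%, 0.674% and 1.34% of all tests called at 10, 2 and 0.4 µM. Without the 21 libraries the background rose from 2.6% to 6.89% of all tests at 10 µM. For oleanolic acid at 10 µM, with shares of 11.2, 10.3 and 2.97%, 7 of 9 chaperones were called lower without its replicate 3, beside 21.9% of all genes called. In the same fit 4 and 3 of 9 were called lower with oleanolic acid at 2 and 0.4 µM, beside 7.99% and 4.69% of all genes called, 3 with paeoniflorin at 0.4 µM (10.3%) and 3 with gallic acid at 10 µM (1.81%). What set the mitochondrial shares was not tested.

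**Figure D5:**
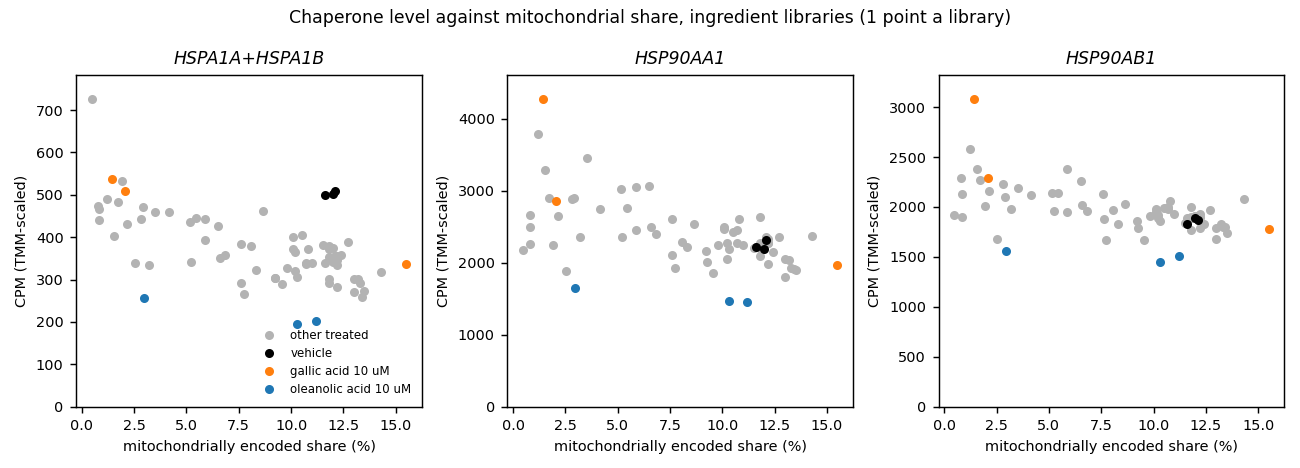
CPM of HSPA1A+HSPA1B, HSP90AA1 and HSP90AB1 (vertical axes, from 0) against the share of counts from 13 mitochondrially encoded protein genes (horizontal axes, %), 1 point for each of the 75 batch 2 libraries, with vehicle in black, gallic acid at 10 µM in orange and oleanolic acid at 10 µM in blue. The 2 orange points at 1.44 and 2.07% lie above the one at 15.5% in each panel.

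Around the 9 chaperones, oleanolic acid at 10 µM also lowered 6 of 23 HSP70 system genes, including the J-domain gene DNAJB4 (log2 -1.01 ± 0.12) and HSPA4L (-0.49 ± 0.09). It lowered 3 of 12 HSP90 cochaperones, including CHORDC1 (-0.78) and AHSA1 (-0.37), and raised 2 mitochondrial chaperones, HSPA9 (0.56) and DNAJA3 (0.31), beside 1.86% of all genes lower and 2.58% higher. Of the genes listed as heat shock factors and other heat shock targets, ZFAND2A rose by 0.52 and DEDD2 fell by 0.78. Each passed edgeR's quasi-likelihood test over all genes.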

How the data were processed

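Total RNA of A549 cells was made into libraries with the MGIEasy RNA Directional kit, per the labels' protocols. The authors deposited 1 table of RSEM expected counts for 60675 genes. Per the submitters' processing notes, the build was hg38 (GRCh38) and the tools were RSEM 1.3.3, STAR, Trim Galore and FastQC. Settings, annotation release and any use of strand in the counting were not given in the sources used here. Reads that match several genes are divided among them by RSEM. Of the deposited values 89.2% were whole, and all were rounded to whole numbers here.

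The groups of a batch were fitted together, and the batches apart, in edgeR 4.0.16 (R 4.3.3), using TMM factors, filterByExpr, the quasi-likelihood F-test without covariates and Benjamini-Hochberg adjustment over all genes tested (16853 in batch 1, 18323 in batch 2) at 0.05. "Fell" and "rose" mean past that threshold. HSPA1A and HSPA1B counts were summed before the fit. CPM uses TMM-scaled library sizes, and batches were scaled separately. TMM factors were 0.911 to 1.04 and 0.934 to 1.1, the common biological coefficient of variation 0.0444 and 0.212, and residual degrees of freedom 14 and 50. Values are mean ± SD of 3 libraries or log2 change ± SE. The fit was tested on simulated counts.

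All members are named in every main comparison. Of each list at most 4 genes with the smallest p per extract comparison, or 2 per ingredient comparison, are named, and the 5 other genes most like the members. Members and lists were chosen with earlier results of these data known. Alternatives were DESeq2 1.42.0, RLE factors, no filter, a robust fit, fits of the 2 groups compared, a replicate block, HSPA1A and HSPA1B apart, leaving out libraries, and a covariate for mitochondrial share added after seeing the data. Libraries of low mitochondrial share are the 21 at or below 5.44%. No 2 replicates were identical (0 of 96 pairs).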

Additional observations from a re-analysis of the deposited data

Results flagged for a closer look

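For 8 of the 9 chaperones the step from 100 to 500 µg/mL differed between ethanol and water extract by a test of the difference itself, an interaction term in edgeR's quasi-likelihood fit with Benjamini-Hochberg adjustment, beside 27.5% of all genes lower and 25.4% higher. This test was chosen after the values had been seen. The step was -2.44 with ethanol and 0 with water extract for HSPA1A+HSPA1B, a log2 difference of -2.44 (edgeR adjusted p = 4.12e-19). The differences were -1.10 for FKBP4, -0.96 for HSP90AA1, -0.66 for HSP90AB1, -0.61 for HSPB1, -0.57 for DNAJB1 and -0.22 for HSPA8 (edgeR adjusted p = 4.14e-15, 8.28e-12, 4.29e-11, 1.17e-05, 3.5e-09 and 0.00213). CRYAB differed the other way, by 0.94 (edgeR adjusted p = 0.0125), since it fell further with water extract. HSPH1 differed by -0.08 and did not pass (edgeR adjusted p = 0.228).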

How the results depend on the processing

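All 9 falls with ethanol extract at 500 µg/mL held their call under every alternative run for that comparison. Of the counts of chaperones called, those that moved by over 1.5 times are given with each alternative, and the cause was not tested except that some fits held fewer libraries. In fits of only the 2 groups compared, 1 was called with ethanol extract at 20 µg/mL, beside 0.69% of all genes. With water extract at that dose it was 1 (5.18%), and for water extract at 500 against 100 µg/mL 1 (1.47%). Against vehicle 19 were called at 10 µM (7.66% of all tests), 9 at 2 µM (4.31%) and 16 at 0.4 µM (6.99%), 4 of these 16 higher. With oleanolic acid at 10 µM 7 were called (23.3% of all genes). With gallic acid at 10 µM and for gallic against benzoic acid 0 were called, as were 0 of all genes. DESeq2 called 1 between the extracts at 100 µg/mL (1.93% of all genes) and 2 for ethanol extract at 100 against 20 µg/mL (2.05%). Against vehicle it called 14 at 10 µM (3.61% of all tests, 2 of the 14 higher), 4 at 2 µM (3.08%) and 6 at 0.4 µM (2.3%, 1 higher). For 10 against 0.4 µM it was 4 (0.778%), and with oleanolic acid at 10 µM 6 (5.68%). For hederagenin against oleanolic acid it was 1, at 10 µM (0.0327%). For gallic against benzoic acid it was 2, at 10 µM (13.3%). RLE factors gave 1 for ethanol extract at 100 against 20 µg/mL (1.85% of all genes) and 1 with gallic acid at 10 µM (13.6%). For gallic against benzoic acid they gave 2, at 10 µM (8.74%). Without the filter the counts were 1 for water extract at 500 against 100 µg/mL (1.01% of all genes), 4 at 10 µM (0.47%) and 0 at 0.4 µM (0.0884%). They were 0 for 10 against 0.4 µM (0.0896%), with gallic acid at 10 µM (2.54%) and for gallic against benzoic acid (1.23% at 10 µM). With HSPA1A and HSPA1B apart they were 5 at 2 µM and 6 at 0.4 µM. That fit tests 10 genes in place of 9 in each comparison, so its counts are not directly comparable. The robust fit gave 0 for gallic against benzoic acid, and leaving out the 4 libraries with COL1A2 gave 2 there and 6 with oleanolic acid at 10 µM. Without those 4 libraries 3.43% of all tests against vehicle were called at 10 µM, in place of 2.6%.

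With the mitochondrial share as a covariate, chosen after seeing the data, 1 differed between the extracts at 100 µg/mL (3.45% of all genes). For ethanol extract at 100 against 20 µg/mL it was 2 (3.73%). Against vehicle 22 were called at 10 µM (4.11% of all tests), 16 at 2 µM (0.674%) and 18 at 0.4 µM (1.34%), all lower. For 10 against 0.4 µM it was 9 (1.78%), with hederagenin at 10 µM 4 (8.28%) and with oleanolic acid at 10 µM 7 (12.9%). For hederagenin against oleanolic acid it was 2, at 10 µM (0.109%), and for paeoniflorin against albiflorin 1, at 2 µM (0.00546%). HSPA1A+HSPA1B with catechin at 2 µM then turned from 0.10 to -0.34. Without the libraries of low mitochondrial share the counts were 25 at 10 µM (6.89% of all tests called), all lower. They were 16 at 2 µM (5.7%) and 20 at 0.4 µM (6.54%), 4 higher in each. All calls higher were in groups of 1 remaining library. For 10 against 0.4 µM it was 6 (2.38%), all lower. With hederagenin and oleanolic acid at 10 µM it was 4 and 7, with the shares given above. For hederagenin against oleanolic acid it was 4, also with its share above, and for paeoniflorin against albiflorin 1. HSP90AA1 and HSP90AB1 with gallic acid at 10 µM then turned to -0.18 and -0.06, and HSP90AB1 for gallic against benzoic acid at 10 µM to -0.12, resting on the 1 gallic acid library left.

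Replicate numbers are shared by all groups, but same-numbered libraries deviated together in all 3 numbers in only 0 of 13 batch 1 and 3 of 41 batch 2 comparisons, so the numbers were not taken to pair the libraries. A replicate block gave 1 call between the extracts at 100 µg/mL (2.68% of all genes), in place of 0. It gave 1 for ethanol extract at 100 against 20 µg/mL (3.06%), also in place of 0, and moved no other count by over 1.5 times. In 5 and 4 of these comparisons every library correlated best with its own number.

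Leaving out libraries moved the counts from 8 to between 3 and 11 at 10 µM, from 2 to 0 to 2 at 2 µM, from 3 to 0 to 1 at 0.4 µM, from 2 to 1 to 5 for 10 against 0.4 µM, from 3 to 0 to 3 with gallic acid and from 2 to 1 to 2 with hederagenin at 10 µM. They moved from 1 to 0 to 3 for gallic against benzoic acid, from 0 to 0 to 2 for ethanol extract at 100 against 20 µg/mL (without ethanol 100 µg/mL replicate 2 or 20 µg/mL replicate 1), from 4 to 2 to 4 for ethanol extract at 20 µg/mL (without its replicate 1) and from 2 to 1 for water extract at 500 against 100 µg/mL. The share of all genes called was not set beside these counts, so whether the chaperones moved apart from all genes was not tested. Other counts stayed within 1.5 times, and 310 of 486 single tests passed the threshold in no setting. The wider spread of batch 2, with a coefficient of variation of 0.212 against 0.0444 in batch 1, limits what its 3 libraries a group can show.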

Other observations

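Chaperones of the endoplasmic reticulum, which fold secreted and membrane proteins, did not always move in the direction of the cytosolic group, a difference that was not itself tested. With ethanol extract at 100 µg/mL, where 7 of 9 cytosolic chaperones fell, 9 of 12 endoplasmic reticulum chaperones rose and 0 fell with edgeR's quasi-likelihood test, beside 8.24% of all genes higher. DNAJB9 rose by 0.64, DNAJC3 by 0.45, PDIA4 by 0.34 and HSP90B1 by 0.23. At 500 µg/mL 8 of 12 fell, with HSP90B1 at -0.95 and HSPA5 (BiP) at -0.59, while DNAJB9 at 1.49 and DNAJC3 at 0.98 rose, beside 34.5% of all genes lower and 34.7% higher. With ethanol extract at 20 µg/mL 0 rose and 1 fell, and with water extract 5, 0 and 0 rose and 1, 2 and 1 fell at 500, 100 and 20 µg/mL. With gallic acid at 10 µM 11 of 12 rose, HYOU1 by 0.90 and DNAJB11 by 0.75, beside 8.51% of all genes higher, in libraries whose mitochondrial shares were 1.44, 15.5 and 2.07%. Without the 2 low libraries HYOU1 was at 0.55 and DNAJB11 at 0.52, values of the 1 library left.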
